A study of Mus musculus with 39 samples.

Results

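The 8 genes described here encode the core of antigen presentation by the major histocompatibility complex (MHC): the class I heavy chains H2-K1 and H2-D1, their light chain B2m, the class II chains H2-Aa, H2-Ab1 and H2-Eb1, the class II chaperone Cd74 and the class II transactivator Ciita. They were chosen by symbol as the core members of both presentation routes, and all 8 were found among the 46517 genes of each table. RNA sequencing had been run on 39 libraries, 19 of liver and 20 of triceps surae, a mixed calf muscle. Every mouse was a 25-week-old female that lacked Ins1 (Ins1-/-), on a mixed background of C57BL/6 and 129, sampled after a fast of 4 h. The mice carried either 1 inactivated copy of the remaining insulin gene (Ins2+/-) or none (Ins2+/+ littermates), so no group had both insulin genes intact. They were fed diet B (5.56 kcal per g; 16% of energy as protein, 58% as fat and 26% as carbohydrate) or diet A (4.68 kcal per g; 20% protein, 25% fat and 55% carbohydrate). Each combination of tissue, genotype and diet had 5 libraries except the Ins2+/+ livers on diet B, which had 4. The allele is inactivated in every cell of the body, each library is from whole tissue, and the labels do not say whether a liver and a muscle came from the same animal.

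Total estimated counts ran between 1289225 and 54249818 per liver library and between 1060469 and 13709576 per muscle library, so that a count of 0 allowed up to 2.33 counts per 1e6 (CPM) in the shallowest liver and 2.83 CPM in the shallowest muscle. The labelled tissues fitted their markers. The 5 hepatocyte markers summed to at least 88213 CPM in every liver against at most 1847 CPM in any muscle, and the 5 muscle fibre markers summed to at least 55830 CPM in every muscle against at most 96.1 CPM in any liver. Several libraries stood apart. Islet hormone transcripts (Iapp, Gcg, Sst and Ppy) reached 5 CPM or more in 6 livers and 9 muscles, and mitochondrial transcripts took 49.7% of the counts in muscle Ins2+/- B replicate 2 and 26.8% in muscle Ins2+/- A replicate 3. Within groups, livers Ins2+/- B replicates 2 and 3 were closer to each other than any other pair of livers. Their chi-square per degree of freedom was 1.13 at equal depth, against 2.26 for the next pair. They were also the deepest libraries, with 54249818 and 48823121 counts. That value lay only slightly above what count sampling alone gives. No test was run on it, and it does not show whether the 2 livers came from separate animals. The main fit kept them as separate samples, and a fit with them summed is given below.

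Class I molecules sit on nearly all nucleated cells and show peptides cut from proteins of the cytosol to CD8 T cells. A heavy chain is loaded in the endoplasmic reticulum, needs B2m to fold, and is brought into contact with peptide by the Tap transporter and its chaperones. Class II molecules are made mainly by dendritic cells, macrophages and B cells and show peptides of endocytosed proteins to CD4 T cells; Cd74, the invariant chain, blocks their groove until it is cut away by cathepsins in the endosome. Ciita switches the class II genes on, and Nlrc5 plays the matching role for class I. In the liver the resident macrophages, called Kupffer cells, carry class II, whereas hepatocytes carry class I.

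The members differ in where they lie and in the sequence before their first exon. On GRCm38, 5 of the 8 lie in the H2 complex of chromosome 17: H2-K1 at chr17:33996017-34000347 (minus strand), H2-Ab1 at chr17:34257689-34269419 (plus strand), H2-Aa at chr17:34282744-34287823 (minus strand), H2-Eb1 at chr17:34305867-34316674 (plus strand) and H2-D1 at chr17:35262730-35267499 (plus strand). B2m lies at chr2:122147686-122153083 and Ciita at chr16:10480059-10528418, both on the plus strand. B2m lies inside Patl2 on the opposite strand, and the antisense gene Gm20513 overlaps the start of H2-Eb1; the library kit does not mark strand, but Patl2 had 4 counts over all livers and 1 over all muscles, and Gm20513 had 0 in both tissues.

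Stretches of 110 bases before the starts of 4 members are shown because they let the letters before class I and class II genes, which the results set against each other, be compared. They come from RefSeq's promoters on GRCm38.p6 and are written 5′ to 3′ along each gene's own strand. The capitals mark matches to an NF-kB type motif (GGG, any 2 bases, TT, any base, CC), TTTCNNTT (an interferon type motif), GCAACT (the core of the class II X box), TGACGTCA (a cyclic AMP response element) or CTGATTGG (the Y box), on either strand. H2-K1 is shown for chr17:34000349-34000458 on the minus strand, B2m for chr2:122147537-122147646 on the plus strand, H2-Aa for chr17:34287854-34287963 on the minus strand and H2-Eb1 for chr17:34305727-34305836 on the plus strand.
H2-K1: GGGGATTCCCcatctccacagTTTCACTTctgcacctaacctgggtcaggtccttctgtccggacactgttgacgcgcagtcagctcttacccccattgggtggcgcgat
B2m: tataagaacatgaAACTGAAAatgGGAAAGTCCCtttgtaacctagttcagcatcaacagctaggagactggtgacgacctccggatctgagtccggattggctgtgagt
H2-Aa: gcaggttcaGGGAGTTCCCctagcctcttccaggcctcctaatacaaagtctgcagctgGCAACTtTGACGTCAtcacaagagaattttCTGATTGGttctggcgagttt
H2-Eb1: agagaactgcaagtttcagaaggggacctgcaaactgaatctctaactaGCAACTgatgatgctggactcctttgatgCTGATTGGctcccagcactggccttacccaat

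The class II pair H2-Aa and H2-Eb1 both held GCAACT followed by CTGATTGG, with 24 bases between them in H2-Aa and 23 bases in H2-Eb1. Of the 27025 mouse promoters in the table, 4.07% held CTGATTGG, 9.0% held GCAACT and 0.318% held both in the 250 bases before the start. The class I genes H2-K1 and B2m each held the NF-kB type motif beside TTTCNNTT, in opposite orientation between the genes; 4.0% of promoters held the NF-kB type, 21.6% held TTTCNNTT and 0.873% held both. TGACGTCA, found in H2-Aa, was in 1.62% of promoters. H2-D1 also held the NF-kB and interferon types, and the class II gene H2-Aa held both as well, so these motifs did not divide the genes by class. The matching stretch of H2-D1 was identical to that of H2-K1 at 98 of 110 bases (89.1%). The interferon type match of H2-Aa lay outside the stretch shown, and H2-D1 held CTGATTGG on the reverse strand. These motifs were chosen after the promoters had been read, and a match is only a description of the letters. H2-Ab1, Cd74 and Ciita had no promoter entry.

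Levels of the 8 genes are first given per length, as CPM per kilobase of the gene's principal transcript with all 39 libraries normalised together, because only such values can be set side by side between genes. In the 19 livers B2m averaged 1555 ± 132 CPM per kilobase, H2-K1 545 ± 64.4 and H2-D1 187 ± 26.8 (SD). Cd74 followed at 124 ± 42.0, H2-Aa at 60.0 ± 19.9, H2-Ab1 at 51.2 ± 21.7, H2-Eb1 at 29.6 ± 10.9 and Ciita at 0.396 ± 0.174 CPM per kilobase. The order in the liver was the same in all 19 libraries at every step except H2-D1 over Cd74, which held in 17. In the 20 muscles B2m again led with 168 ± 100 CPM per kilobase, but H2-D1 (47.8 ± 18.8), H2-K1 (47.1 ± 23.3) and Cd74 (46.8 ± 12.9) lay together, with H2-D1 above H2-K1 in 10 of 20 libraries and H2-K1 above Cd74 in 10 of 20. H2-Aa (27.5 ± 7.28) lay above H2-Ab1 (20.2 ± 7.996) in 16 of 20 muscles, and H2-Eb1 (10.7 ± 5.26) and Ciita (0.193 ± 0.262) came last in all 20.

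**Figure D1:**
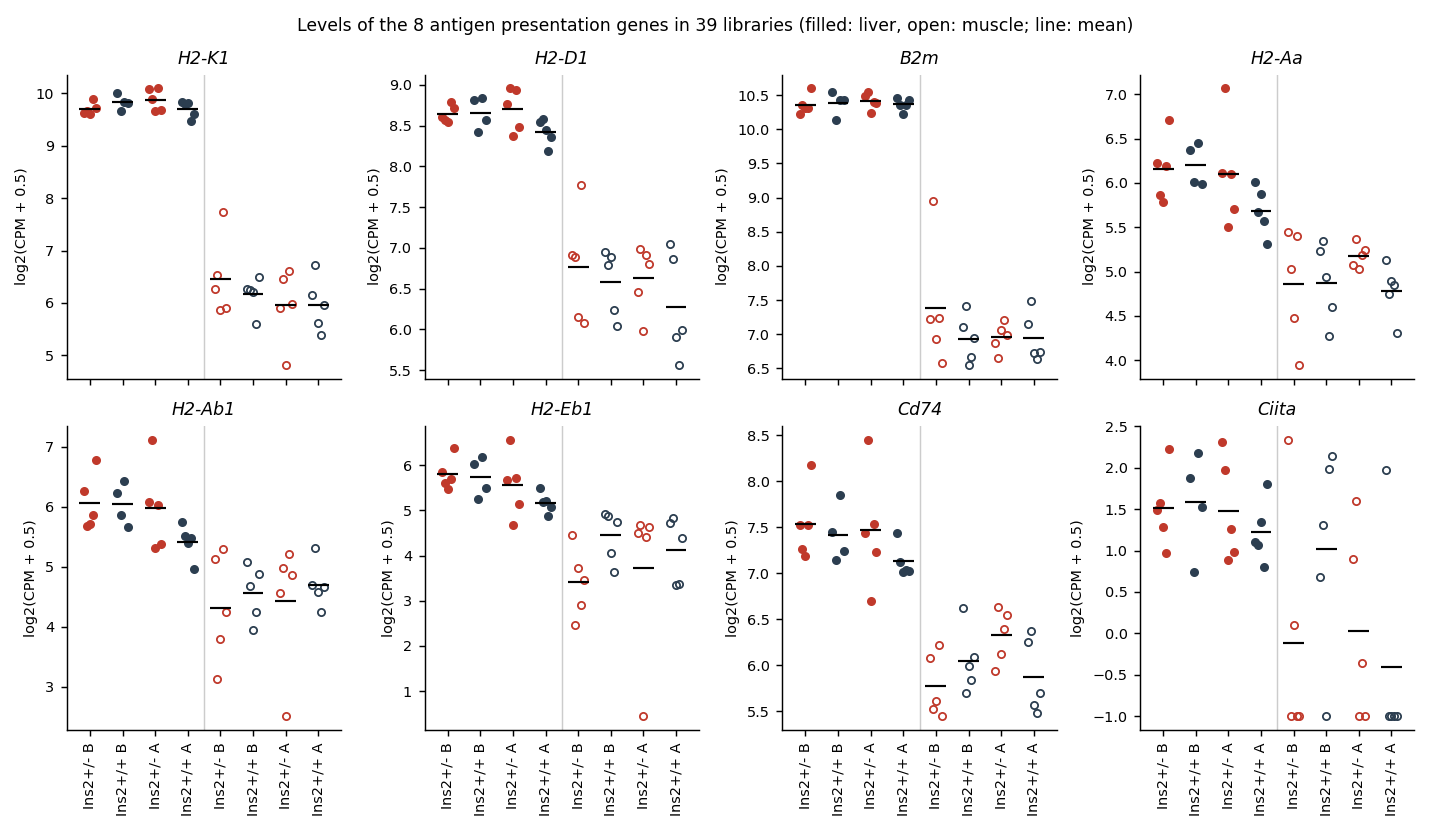
Levels of the 8 genes in each library, as log2(CPM + 0.5) with all 39 libraries normalised together; filled points are livers and open points muscles, red is Ins2+/- and dark is Ins2+/+, with diets B and A side by side and a line at each mean. The class I genes H2-K1, H2-D1 and B2m sit higher in every liver than in any muscle, while the class II genes of the tissues run into each other and the genotypes overlap within each tissue and diet.

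The liver was set against the muscle with genotype and diet averaged, and 7 of the 8 genes were higher in liver by edgeR's quasi-likelihood test; of all 13714 genes tested, 77.8% passed (38% higher and 39.8% lower in liver), so the share of the members is read against a comparison in which most genes differ. The whole set shared a direction, with a median log2 difference of 1.43 against -0.04 over all genes. The class I genes differed most. H2-K1, the heavy chain of the K locus, had 714 to 1092 CPM in livers (median 889) against 27.7 to 213 CPM in muscles (median 72.2). H2-D1, the heavy chain of the D locus, had 292 to 497 CPM in livers (median 379) against 46.9 to 219 CPM in muscles (median 110.2). B2m had 1125 to 1549.99 CPM in livers (median 1340.2) against 93.4 to 496 CPM in muscles (median 125). For all 3 genes the lowest liver lay above the highest muscle. The log2 difference was 3.56 ± 0.15 for H2-K1 (SE, adjusted p = 1.148e-22), 3.24 ± 0.14 for B2m (adjusted p = 3.728e-22) and 1.98 ± 0.13 for H2-D1 (adjusted p = 2.868e-16).

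By estimated counts, the heavy chains therefore took different proportions in the 2 tissues. The ratio of H2-K1 to H2-D1 counts within a library, in which the scaling between libraries cancels, was 1.90 to 2.61 in livers (median 2.28) against 0.444 to 1.37 in muscles (median 0.733), and the tissues did not overlap. Kallisto divides reads that fit both heavy chains, and the genes are close copies and polymorphic, so their split is uncertain and may depend on the strain from which each mouse inherited its H2 complex, which the labels do not give. The class I gene H2-Q10 had 1333 to 1989 CPM in livers against 0.939 to 28.3 CPM in muscles. Whether reads shared with it entered the split was not tested. With the class I heavy chains H2-K1, H2-D1 and the H2-Q, H2-T and H2-M genes summed, which adds the abundant H2-Q10, their tissue difference was 3.78. The ratio of H2-D1 to B2m overlapped between tissues, at 0.223 to 0.362 in livers against 0.238 to 1.46 in muscles.

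**Figure D2:**
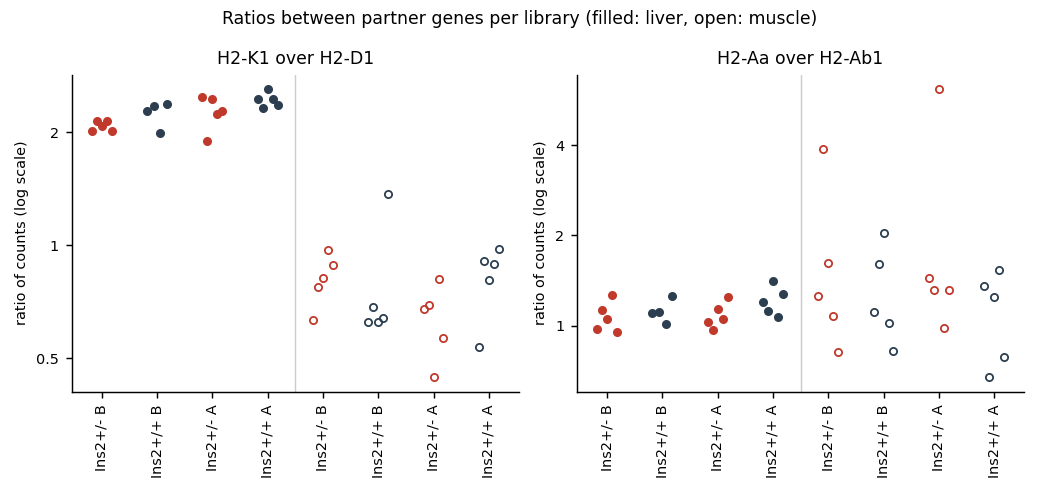
Ratios of counts within each library, on a log axis, for livers (filled) and muscles (open), with red for Ins2+/- and dark for Ins2+/+. The ratio of H2-K1 to H2-D1 runs between 1.90 and 2.61 in livers against 0.444 to 1.37 in muscles without overlap, whereas the ratio of H2-Aa to H2-Ab1 overlaps between tissues.

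The class II genes and Cd74 were higher in liver by smaller amounts, and for the class II chains the tissues overlapped. H2-Aa, an alpha chain, had 39.2 to 134 CPM in livers (median 63.8) against 14.9 to 43.3 CPM in muscles (median 32.1). H2-Ab1, its partner beta chain, had 30.7 to 138 CPM in livers (median 53.4) against 5.20 to 39.2 CPM in muscles (median 24.8). The overlap of both chains rested on 1 liver, Ins2+/+ A replicate 5, which was the lowest for each. H2-Eb1, the beta chain of the E isotype, had 25.3 to 94.3 CPM in livers (median 44.8) against 0.867 to 29.7 CPM in muscles (median 20.7), again with overlap. Cd74, which lies on the plus strand at chr18:60803848-60812652, had 103 to 350.4 CPM in livers (median 153) against 43.1 to 99.0 CPM in muscles (median 65.2), with no overlap. The log2 differences were 1.45 ± 0.19 for H2-Eb1 (adjusted p = 1.808e-08), 1.40 ± 0.13 for Cd74 (7.779e-13), 1.32 ± 0.18 for H2-Ab1 (2.801e-08) and 1.13 ± 0.13 for H2-Aa (7.282e-10). H2-Ea-ps, the E alpha gene whose C57BL/6 allele is a pseudogene, had 0 counts in all 39 libraries.

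Ciita was at the edge of detection in both tissues. It had 442 counts over all livers against 166 over all muscles, with 0 in 10 of the 20 muscles, at 1.17 to 4.46 CPM in livers against 0 to 4.57 CPM in muscles. Its estimate of 1.01 ± 0.53 (adjusted p = 0.0784) missed the threshold of 0.05. The call turned on the processing. Apart from leaving out 1 library, 5 alternatives took Ciita past the threshold. Among them were DESeq2 at 1.24 and the fit without the libraries numbered 1 at 2.91. Leaving out muscle Ins2+/- B replicate 1, muscle Ins2+/+ A replicate 1 or muscle Ins2+/- A replicate 2 alone gave 1.63, 2.42 or 1.25, each past the threshold.

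Of the cells that carry class II, macrophage and B cell markers also lay higher in liver, and dendritic cell markers did not. The macrophage list includes Kupffer cell genes of the liver. In that list Vsig4 and Marco were at 0 in the Ins2+/+ muscles on diet B. The 12 macrophage and Kupffer cell markers summed to 470.1 to 1093 CPM in livers against 67.5 to 140.4 CPM in muscles, and all 12 were higher in liver, with a median log2 difference of 2.11. The 5 leukocyte markers summed to 47.5 to 91.4 CPM in livers against 10.3 to 41.5 CPM in muscles, and 4 of 5 were higher in liver. Within muscle only 7 of the 12 macrophage and 4 of the 5 leukocyte markers passed the expression filter, against 12 and 5 within liver. Markers that entered through liver alone could hardly be called lower there. Over all genes tested, 38% were higher and 39.8% lower in liver. Dendritic cell markers overlapped, at 8.29 to 28.3 CPM in livers (median 20.2) against 12.0 to 39.5 CPM in muscles (median 24.4). B cell markers summed to 4.85 to 12.6 CPM in livers against 0 to 6.58 CPM in muscles, and T and NK cell markers to 2.40 to 14.2 CPM in livers against 0 to 9.56 CPM in muscles, where Cd3g, Cd8b1 and Ncr1 were at 0 throughout. In whole tissue fewer cells of a type and less RNA per cell cannot be told apart, and the part of these markers in the differences was not tested.

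The rest of the pathway was counted over 71 further listed genes, of which 57 could be tested between tissues. Of these, 43 were higher and 8 lower in liver. Fitted alone, liver had 56 of the 71 testable and muscle 51. Genes that entered through liver alone could hardly be called lower there, which can raise the count of genes higher in liver. Over all 13714 genes tested, 38% were higher and 39.8% lower, and the counts per list are to be read against those shares. All 8 tested class I loading genes were higher, among them the peptide loading chaperones Pdia3 (2.20 ± 0.13 on the log2 scale), Calr (1.97 ± 0.10) and Canx (1.52 ± 0.07) and the peptide trimming enzyme Erap1 (1.83 ± 0.11). All 5 immunoproteasome genes were higher, with the catalytic subunits Psmb9 at 2.60 ± 0.34 and Psmb10 at 1.45 ± 0.17 and the activator subunits Psme2 at 1.34 ± 0.12 and Psme1 at 0.99 ± 0.11. Of the class I regulators 4 of 5 were higher, led by the transactivator Nlrc5 at 3.60 ± 0.31, with the interferon regulatory factors Irf1 at 1.96 ± 0.24 and Irf2 at 1.44 ± 0.13 and the NF-kB subunit Rela at 1.06 ± 0.17. Nfkb1 had an estimate of 0.11 (adjusted p = 0.185). Psmb9 and Nlrc5 lay near the floor in muscle, with 226 and 127 counts in total and 0 in 4 and 3 of the 20 muscles.

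Other class I genes were higher in 11 of 14 cases and lower in 1. H2-Q10, a class I molecule secreted by hepatocytes, had 1333 to 1989 CPM in livers against 0.939 to 28.3 CPM in muscles, a log2 difference of 7.40 ± 0.27. Cd1d1, which presents lipids to NKT cells, differed by 5.52 ± 0.20, H2-T23, a ligand of NK cell receptors, by 3.96 ± 0.15 and Fcgrt, the neonatal Fc receptor, by 1.94 ± 0.10. Mr1, which presents vitamin B metabolites to MAIT cells, was the member lower in liver, at -1.18 ± 0.12.

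Of 6 class II loading genes 5 were higher, including the cathepsins Ctss (1.90 ± 0.16) and Ctsl (1.67 ± 0.08), the thiol reductase Ifi30 (1.08 ± 0.17) and the protease Lgmn (0.80 ± 0.12). Of 9 class II regulators 4 were higher and 3 lower. The ubiquitin ligases March1 (2.53 ± 0.51) and March8 (1.14 ± 0.10), which remove class II from the surface, were higher, and the Y box binding subunits Nfyc (-0.86 ± 0.11) and Nfyb (-0.71 ± 0.12) were lower. March1 was at 0 in 12 of the 20 muscles. Of 10 interferon gamma genes 6 were higher, among them the GTPases Iigp1 (5.64 ± 0.23) and Igtp (2.04 ± 0.18), and 4 were lower, among them the receptor chain Ifngr2 (-1.64 ± 0.11) and the kinase Jak2 (-1.27 ± 0.11). Ifng itself had 8 counts over all livers and 0 over all muscles. The list medians were 1.90 for class I loading, 1.45 for the immunoproteasome, 1.44 for class I regulators, 2.24 for other class I genes, 1.13 for class II loading, 0.43 for class II regulators and 0.95 for interferon gamma genes.

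**Figure D3:**
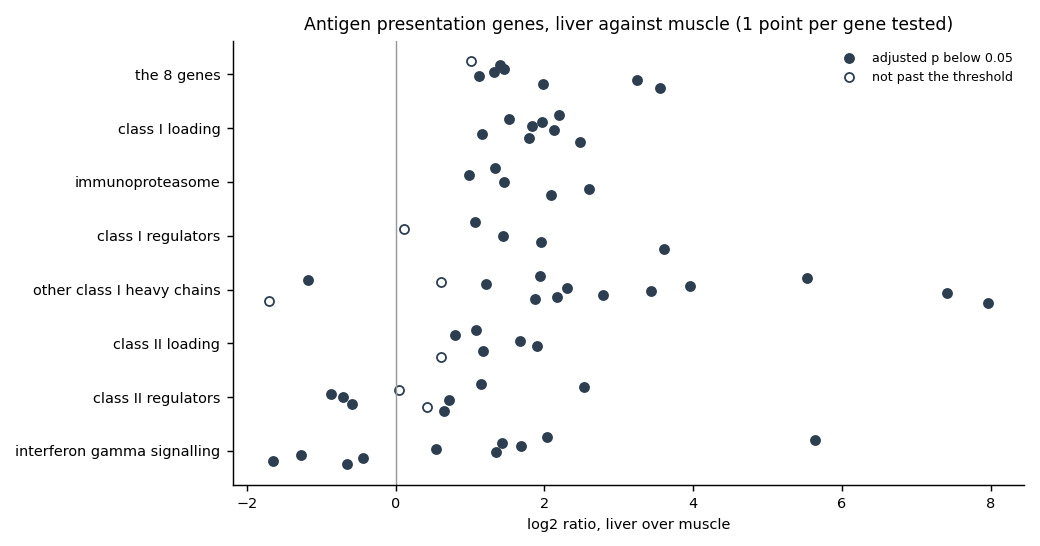
Log2 difference of liver over muscle for each tested gene of the pathway lists, with a filled point where the adjusted p was below 0.05 and the 8 members in their own row. Class I loading and immunoproteasome genes all lie above 0, and class II regulators and interferon gamma genes lie on both sides of it.

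Within the liver on diet A, the Ins2+/- livers had higher mean levels of the class II genes and Cd74 than the Ins2+/+ livers, but the groups overlapped for every member and none passed the test. From here on CPM are normalised within a tissue and libraries are given in the order of replicates 1 to 5. H2-Ab1 had 68.4, 139.6, 40.1, 65.2 and 42.2 CPM in Ins2+/- livers, against 54.6, 46.0, 42.3, 44.6 and 31.4 CPM in Ins2+/+ livers. H2-Aa had 70.1, 135, 45.6, 68.3 and 52.8 CPM in Ins2+/- livers, against 65.6, 51.5, 59.6, 47.8 and 40.2 CPM in Ins2+/+ livers. Replicate 2 of the Ins2+/- group was the highest library for both chains, and replicates 3 and 5 of that group lay inside the Ins2+/+ range for both. H2-Eb1 had 51.6, 95.1, 25.7, 52.3 and 35.4 CPM in Ins2+/- livers, against 45.3, 36.4, 37.4, 29.5 and 34.1 CPM in Ins2+/+ livers. Cd74 had 176, 353, 105, 186 and 153 CPM in Ins2+/- livers, against 177, 141, 132, 133 and 133 CPM in Ins2+/+ livers. Replicate 3 of the Ins2+/- group was the lowest of the 10 livers for both of these genes and replicate 2 the highest.

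None of the 8 members was called on diet A by edgeR's quasi-likelihood test, nor by DESeq2 or limma-voom, where 0.00849% of all 11777 genes were called by edgeR. By that edgeR test 3 of the 8 had an unadjusted p below 0.05, as had 1195 of all 11777 genes. The log2 differences were 0.72 ± 0.28 for H2-Ab1 (adjusted p = 0.395), 0.54 ± 0.26 for H2-Eb1 (0.501), 0.50 ± 0.23 for H2-Aa (0.482) and 0.45 ± 0.24 for Cd74 (0.535). Leaving out Ins2+/- replicate 2 took H2-Ab1 to 0.33, H2-Eb1 to 0.21, H2-Aa to 0.18 and Cd74 to 0.12. Without the livers holding islet transcripts, which include that library, they were 0.30, 0.21, 0.19 and 0.14.

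Of the class I members, H2-D1 had 442, 500.6, 337, 490.2 and 366 CPM in Ins2+/- livers on diet A, against 381, 391, 355, 296 and 336 CPM in Ins2+/+ livers. The 3 highest values were Ins2+/- libraries, and the other Ins2+/- values lay within the Ins2+/+ range. Its log2 difference was 0.28 ± 0.11 (adjusted p = 0.419). H2-K1 had 1100.1, 951, 826, 1097.5 and 835 CPM in Ins2+/- livers, against 937, 906, 926, 725 and 796 CPM in Ins2+/+ livers, a difference of 0.17 ± 0.10 (adjusted p = 0.605). B2m had 1466, 1511, 1228, 1353 and 1373 CPM in Ins2+/- livers, against 1444, 1333, 1218, 1331 and 1413 CPM in Ins2+/+ livers, a difference of 0.04 ± 0.09 (adjusted p = 0.922). Ciita, at 1.37 to 4.54 CPM in Ins2+/- livers against 1.26 to 3.06 CPM in Ins2+/+ livers, had an estimate of 0.51 ± 0.42 (adjusted p = 0.704), which was -0.18 without the livers holding islet transcripts. All 8 estimates were above 0, with a median of 0.48 against -0.01 over all genes. Without replicate 2 of the Ins2+/- group the median was 0.19, and without the livers holding islet transcripts it was 0.16 with 6 of 8 above 0.

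**Figure D4:**
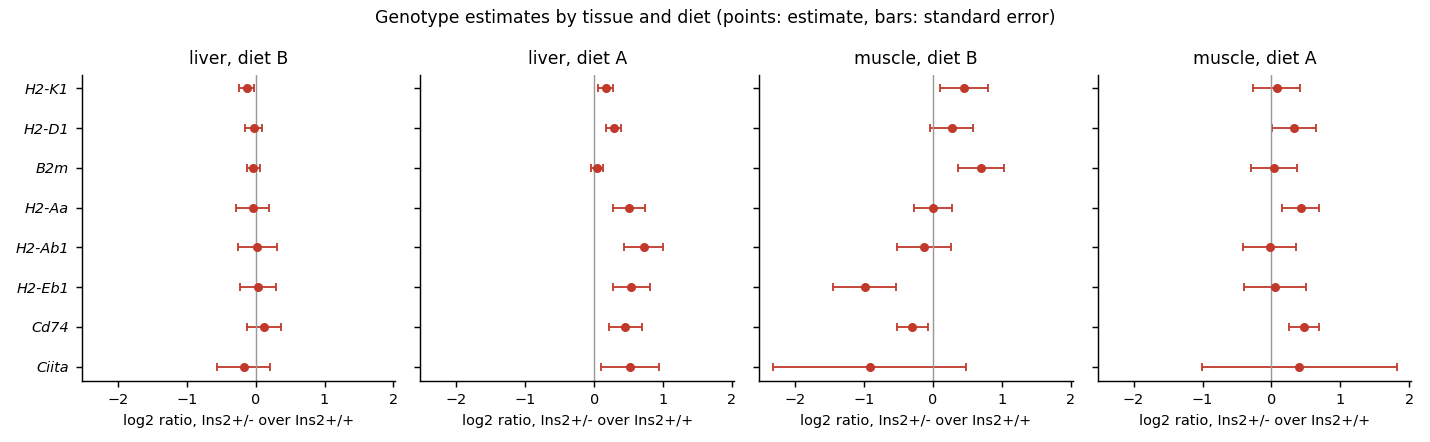
Log2 difference of Ins2+/- over Ins2+/+ for the 8 genes, with bars of 1 standard error, in a panel for each tissue and diet. Liver estimates on diet B lie near 0 and those on diet A all lie above 0, while muscle estimates scatter more widely, and none passed the test.

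Markers of other cells moved with the diet A livers. Macrophage and Kupffer cell markers summed to 707 to 1093 CPM in Ins2+/- livers (median 816) against 572 to 697 CPM in Ins2+/+ livers (median 659), without overlap, and leukocyte markers to 55.2 to 91.4 CPM (median 69.5) against 47.5 to 66.9 CPM (median 55.4). All 12 macrophage markers and all 5 leukocyte markers had estimates above 0, with medians of 0.39 and 0.43, and none was called. The share of all genes with an estimate above 0 was 48.8%. Dendritic cell markers did not move that way, at 8.29 to 20.2 CPM in Ins2+/- livers against 17.5 to 21.9 CPM in Ins2+/+ livers. B cell markers summed to 7.11 to 11.4 CPM in Ins2+/- livers (median 10.3) against 4.85 to 8.49 CPM in Ins2+/+ livers (median 6.96), and hepatocyte markers had medians of 130255 CPM in Ins2+/- livers against 102337 CPM in Ins2+/+ livers. Replicate 2 of the Ins2+/- group, the library with the highest class II levels, ranked first of the 19 livers in both the leukocyte and the macrophage sums. It ranked 4th in the B cell, 9th in the dendritic cell, 16th in the T and NK cell and 2nd in the islet sum. Other livers of that group did not pair these ranks. Replicate 5 was 2nd in leukocytes and 3rd in macrophages but 14th in class II with Cd74, and replicate 3 was 6th in macrophages but 19th in class II with Cd74. The part of these cells in the class II levels was not tested.

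Over all genes, 48.8% of the genotype estimates in the liver on diet A were above 0. None of the 56 testable genes of the pathway lists was called there either. Their estimates were above 0 for 6 of 6 class II loading genes (median 0.51), 9 of 10 interferon gamma genes (0.28), 4 of 5 immunoproteasome genes (0.25), 10 of 13 other class I genes (0.24), 5 of 8 class I loading genes (0.07), 3 of 5 class I regulators (0.05) and 3 of 9 class II regulators (-0.11). The genes of lowest p were Ifi30 at 0.63 ± 0.19 (adjusted p = 0.265) and Lgmn at 0.38 ± 0.13 (0.304) for class II loading, and H2-T22 at 0.38 ± 0.12 (0.278) and H2-Q4 at 0.41 ± 0.14 (0.342) for other class I genes. Among interferon gamma genes they were the GTPases Irgm1 at 0.35 ± 0.12 (0.336) and Igtp at 0.38 ± 0.14 (0.363), and among immunoproteasome genes Psmb8 at 0.47 ± 0.22 (0.471) and Psmb9 at 0.34 ± 0.17 (0.502). Nlrc5 had -0.30 ± 0.22 (0.658), and the peptide transporter Tap1 had 0.19 ± 0.16 (0.715). The list estimates were not recomputed without Ins2+/- replicate 2. Leaving out that library took the median of the 8 members from 0.48 to 0.19.

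On diet B the liver estimates for genotype lay nearer to 0 than on diet A. None of the 8 members was called by edgeR, DESeq2 or limma-voom, 0% of all genes were called by edgeR, and no member had an unadjusted p below 0.05. The estimates ran between -0.18 for Ciita and 0.12 for Cd74, and 3 of 8 were above 0. That count was 0 without Ins2+/- B replicate 5, 6 without Ins2+/+ B replicate 2 or without Ins2+/+ B replicate 4, and 7, with a median of 0.09, without the libraries holding islet transcripts. H2-Ab1 had 78.3, 51.8, 52.8, 58.5 and 110.3 CPM in Ins2+/- livers on diet B, against 75.8, 58.7, 86.9 and 51.0 CPM in the Ins2+/+ livers numbered 2 to 5. Cd74 had 188, 155, 148, 187 and 291 CPM in Ins2+/- livers, against 178, 144, 233 and 154 CPM in Ins2+/+ livers. Replicate 5 of the Ins2+/- group was the highest for both, and the groups overlapped. H2-K1 had 804, 827, 791, 965 and 853 CPM in Ins2+/- livers, against 1047.5, 822, 924 and 920 CPM in Ins2+/+ livers, a log2 difference of -0.13 ± 0.11 (adjusted p = 1.0). Replicate 5 of the Ins2+/- group also ranked first of the 19 livers in the dendritic cell and T and NK cell sums. It ranked 2nd in the macrophage, 3rd in the leukocyte and 6th in the B cell sum.

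Averaged over diets, all 8 liver estimates for genotype were 0 or above, between 0.00 for B2m and 0.37 ± 0.20 for H2-Ab1 (adjusted p = 0.566), and none was called by edgeR's quasi-likelihood test, DESeq2 or limma-voom, with 0 at an unadjusted p below 0.05 and 0.00849% of all genes called. Cd74 had 0.29 ± 0.17, H2-Eb1 0.28 ± 0.19, H2-Aa 0.23 ± 0.17 and H2-D1 0.13 ± 0.08. Leaving out Ins2+/- A replicate 2 alone gave 0.18 for H2-Ab1, 0.12 for Cd74, 0.12 for H2-Eb1 and 0.07 for H2-Aa, and leaving out Ins2+/- B replicate 5 gave 0.19 for Cd74 and 0.15 for H2-Aa. The genotype by diet interaction, which is the genotype difference on diet B minus that on diet A, was below 0 for all 8, between -0.69 ± 0.40 for H2-Ab1 and -0.07 for B2m, with -0.31 ± 0.17 for H2-D1 and -0.30 ± 0.15 for H2-K1. None was called (lowest adjusted p = 0.981), 0% of all genes were, and 0 of 8 had an unadjusted p below 0.05; DESeq2 and limma-voom called none. Without Ins2+/- A replicate 2 the interaction of H2-Ab1 was -0.30. Without the libraries holding islet transcripts it was -0.17 for H2-Ab1, -0.14 for H2-D1 and -0.15 for H2-K1.

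Diet B against diet A, averaged over genotypes, gave estimates between -0.04 for H2-K1 and 0.35 ± 0.19 for H2-Eb1 (adjusted p = 0.46), with 0.28 ± 0.20 for H2-Ab1 (adjusted p = 0.614). Without the libraries holding islet transcripts these were 0.62 for H2-Eb1 and 0.58 for H2-Ab1, and H2-Ab1 was 0.48 without Ins2+/- A replicate 2 and 0.18 without Ins2+/- B replicate 5. None of the 8 was called by edgeR, DESeq2 or limma-voom, none had an unadjusted p below 0.05, and 0.238% of all genes were called by edgeR.

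Among livers the class II genes and Cd74 moved together. After each library's log2 level was set against the mean of its own group, the correlation over 19 livers was 0.962 for H2-Aa with H2-Ab1, 0.938 for H2-Aa with H2-Eb1, 0.918 for H2-Ab1 with H2-Eb1 and between 0.928 and 0.960 for each chain with Cd74. H2-K1 followed H2-D1 at 0.830, whereas B2m followed H2-D1 at 0.540 and H2-K1 at 0.379. With the mean of the class II chains and Cd74, the correlation was 0.767 for H2-D1, 0.618 for B2m, 0.606 for Ciita and 0.442 for H2-K1. For cell markers its median was 0.498 over 12 macrophage genes, 0.437 over 5 leukocyte genes and -0.289 over hepatocyte genes, against 0.003 over all genes. Other lists also lay above 0, at 0.406 over 5 islet, 0.345 over 8 acinar and 0.299 over 4 dendritic cell genes, with 0.395 for 1 adipocyte gene. It was -0.04 over 6 endothelial, -0.104 over 2 B cell and -0.382 over 4 muscle fibre genes. The values are thus not particular to macrophages and leukocytes. These are descriptions over libraries that share depth and composition, and no test was run.

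**Figure D5:**
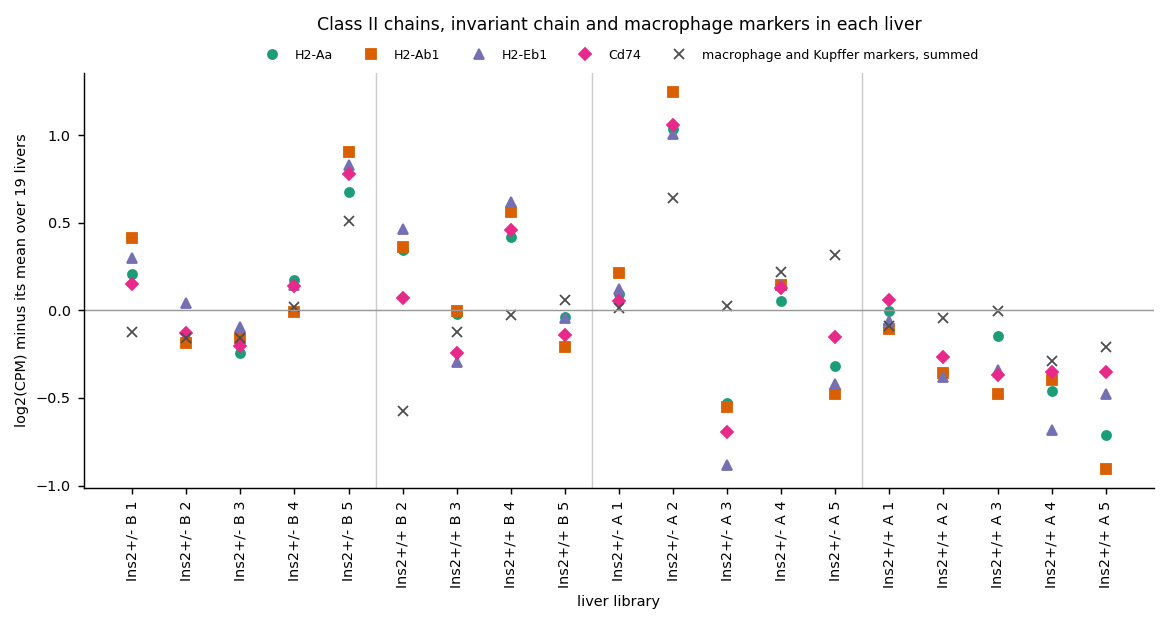
Log2 CPM of H2-Aa, H2-Ab1, H2-Eb1 and Cd74 in each liver minus the gene's mean over the 19 livers, and crosses for the summed macrophage and Kupffer cell markers, with libraries along the horizontal axis. The 4 genes move as a bundle, and Ins2+/- A replicate 2 is the highest for all of them.

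The summed CPM of the 3 class II chains and Cd74 showed how far single livers lay apart. They were 723 in Ins2+/- A replicate 2, 591 in Ins2+/- B replicate 5 and 481 in Ins2+/+ B replicate 4, against 216 in Ins2+/- A replicate 3, the lowest. The highest and the lowest liver thus belonged to the same group. By the correlation of deviations with that bundle, the genes most like it among 11744 were Ifitm2 (0.890), Itih4 (0.871), Gbp2 (0.864), Serpina3g (0.854) and Ptpn13 (0.828). Those most like the mean of the class I members were Rrp7a (0.844), Nnmt (0.792), Gbp2 (0.782), Orm3 (0.780) and Cd52 (0.774).

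In the muscle on diet A, 7 of 8 estimates for genotype were above 0 and none was called by edgeR's quasi-likelihood test, DESeq2 or limma-voom, with 0% of all genes called and 1 of the 8 at an unadjusted p below 0.05. That unadjusted cutoff was met by 200 of all 11959 genes. Cd74 had 56.3, 97.8, 78.7, 83.0 and 88.0 CPM in Ins2+/- muscles, against 72.0, 77.9, 45.8, 44.7 and 49.2 CPM in Ins2+/+ muscles. H2-Aa had 31.0, 40.1, 36.4, 35.8 and 35.5 CPM in Ins2+/- muscles, against 32.9, 24.9, 28.5, 28.6 and 18.5 CPM in Ins2+/+ muscles. For both genes 4 of 5 Ins2+/- muscles lay above the highest Ins2+/+ muscle. The 5 leukocyte markers summed to 22.4 to 41.5 CPM in Ins2+/- muscles (median 30.3) against 10.9 to 22.5 CPM in Ins2+/+ muscles (median 19.3), also with 4 of 5 Ins2+/- muscles above the highest Ins2+/+ muscle. Macrophage markers had medians of 101 CPM in Ins2+/- muscles against 90.9 CPM in Ins2+/+ muscles, and the part of these cells in the levels was not tested. The log2 difference was 0.48 ± 0.22 for Cd74 and 0.42 ± 0.27 for H2-Aa (adjusted p = 0.999 for both), and the lowest of the 8 estimates was -0.03, for H2-Ab1.

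On diet B the muscle estimates spread further, between -0.99 ± 0.46 for H2-Eb1 and 0.69 ± 0.33 for B2m (adjusted p = 0.944 for both), and again none was called by edgeR, DESeq2 or limma-voom, with 0% of all genes called and 2 of the 8 at an unadjusted p below 0.05. By edgeR 543 of all 11959 genes met that unadjusted cutoff. H2-Eb1 had 20.1, 5.17, 11.9, 7.45 and 10.1 CPM in Ins2+/- muscles, against 27.5, 30.7, 16.2, 12.4 and 25.8 CPM in Ins2+/+ muscles. Only Ins2+/- replicate 1 exceeded the lowest 2 Ins2+/+ libraries. Without the libraries holding islet transcripts the H2-Eb1 estimate was -0.55. Medians of marker sums also lay lower in Ins2+/- muscles, at 74.9 CPM against 110.03 CPM in Ins2+/+ muscles for macrophages, 19.9 CPM against 27.0 CPM for dendritic cells and 15.9 CPM against 20.4 CPM for leukocytes, with overlap in each, and their part in the H2-Eb1 levels was not tested. B2m had 139, 509, 113, 161 and 91.2 CPM in Ins2+/- muscles, against 127, 180.3, 93.0, 105 and 120.0 CPM in Ins2+/+ muscles. Its high value was Ins2+/- replicate 2, the library with 49.7% mitochondrial counts, and without it the B2m estimate was 0.00. H2-K1 likewise had 1 high library, at 227.6 CPM in Ins2+/- replicate 4 against 94.0 CPM in the next of that group. That library also held the most pancreatic transcripts of any muscle, with 31386 CPM of 10 acinar markers and 19170.2 CPM of 5 islet markers, and the lowest muscle fibre sum, 55830 CPM; their part in its H2-K1 level was not tested.

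Averaged over diets, the muscle estimates ran between -0.47 ± 0.32 for H2-Eb1 and 0.36 ± 0.24 for B2m (adjusted p = 0.999 for both), and the B2m estimate was 0.02 without Ins2+/- B replicate 2. Without the libraries holding islet transcripts the averages were -0.15 for H2-Eb1 and 0.06 for B2m. The interaction in muscle ran between -1.32 for Ciita and 0.66 for B2m, with -1.03 ± 0.64 for H2-Eb1 and -0.77 ± 0.31 for Cd74 (adjusted p = 1 for both). Diet B against diet A gave -0.20 for H2-Eb1 to 0.88 for Ciita, with 0.38 ± 0.24 for H2-K1 and 0.36 ± 0.24 for B2m (adjusted p = 0.999 for both); these were 0.11 without Ins2+/- B replicate 4 for H2-K1 and 0.01 without Ins2+/- B replicate 2 for B2m. In these 3 comparisons none of the 8 members was called by edgeR, DESeq2 or limma-voom. The numbers at an unadjusted p below 0.05 were 0, 1 and 0, and edgeR called 0%, 0% and 0.00836% of all genes. Over all 11959 genes, 387, 387 and 454 met the unadjusted cutoff. Of the pathway genes 51 could be tested in muscle, and none was called in any genotype or diet comparison.

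Over 20 muscles the correlation of deviations, again given as a description, was 0.768 for H2-Ab1 with H2-Eb1, 0.509 for H2-Aa with Cd74, 0.275 for H2-Aa with H2-Ab1 and 0.051 for H2-Aa with H2-Eb1, while H2-K1 followed H2-D1 at 0.811. The ratio of H2-Aa to H2-Ab1 counts was 0.955 to 1.41 in livers (median 1.11) against 0.671 to 6.17 in muscles (median 1.29). Its highest value was in Ins2+/- A replicate 3, with 37 counts of H2-Aa, 6 of H2-Ab1 and 1 of H2-Eb1, and the next in Ins2+/- B replicate 2, with 70, 18 and 11 counts. These are the muscles with the highest mitochondrial shares, and without them the ratio was 0.671 to 2.03 in 18 muscles. The genes most like the class II bundle in muscle among 11924 were C4b (0.879), Med10 (0.871), Inpp4a (0.857), Cmtm3 (0.828) and Parva (0.828), and among those most like the class I mean were Gnb1 (0.871), Med11 (0.865), Acvr1 (0.819) and Ap1s3 (0.799).

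Whether the effects differed between tissues was tested directly. The genotype effect in liver minus that in muscle ran between -0.33 for B2m and 0.71 ± 0.39 for H2-Eb1 (adjusted p = 1.0; 0.38 without the libraries holding islet transcripts), and the diet effect in liver minus that in muscle between -0.63 for Ciita and 0.58 ± 0.38 for H2-Eb1 (adjusted p = 1). None of the 8 members was called in either by edgeR, DESeq2 or limma-voom, none had an unadjusted p below 0.05, and edgeR called 0% of all genes in both. The spread between libraries limits what these comparisons can show: the common biological coefficient of variation was 19.1% in liver and 51.8% in muscle.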

How the data were processed

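Per the labels' protocols, TruSeq libraries (RNA kit version 2, which does not mark strand) of 19 livers and 20 triceps surae muscles were run on a HiSeq 2500. The tools named in the submitters' processing notes are kallisto 0.42.3, bcl2fastq 1.8.4 and DESeq2, whose role is not stated, and the build is GRCm38. The deposited values are estimated counts per gene from kallisto, which splits reads of similar transcripts by likelihood. Which library ran on which lane is not given, so no lane term was fitted.

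Estimated counts were rounded to whole numbers. Symbols and coordinates came from the GENCODE annotation of GRCm38, which matched 46005 of 46517 identifiers (98.9%). Groups came from the labels. Each tissue was fitted with edgeR 4.0.16 in R 4.3.3 (filterByExpr, TMM normalisation, glmQLFit and glmQLFTest) over its 4 genotype and diet groups, and all 39 libraries were fitted together for comparisons between tissues. Residual degrees of freedom were 15 in liver, 16 in muscle and 31 for both. Adjusted p-values are Benjamini-Hochberg over all genes tested (11777, 11959 and 13714). Values after ± are SD for levels and SE for log2 differences. Likeness and correlations used log2(CPM + 0.5). The fits were tested on simulated counts. Total counts, given with the samples, set the precision: a count of 0 allows up to 3 counts.

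The 8 members and the pathway and marker lists were chosen with earlier results of these data known. The text names the 8 members, up to 4 called genes of each pathway list and comparison by lowest p, the 2 of lowest p where none was called, and the 5 genes most like each bundle; lowest-p genes are given for the liver on diet A, and not every gene meeting the rule is named. Alternatives were RLE scaling, no filter and a stricter filter, DESeq2 1.42.0, limma-voom (limma 3.58.1), a replicate block, a fit of the groups compared alone, summed class I heavy chains, and libraries left out or summed. Pairs of libraries sharing a replicate number had a correlation of deviations over 0.1 in 6 of 27 liver pairs (14 of 108 without a shared number), 10 of 30 muscle pairs (8 of 120) and 1 of 19 pairs of a liver and a muscle (7 of 76). The main fit did not treat the numbers as pairs, although in muscle more pairs with a shared number passed. Not every pair was over 0.1, but that is no test of a shared block. What the numbers stand for was not tested, and the replicate block is given as an alternative. Nothing says that the libraries of a group came from separate mice, so p-values measure the spread between these samples. Promoter sequences came from RefSeq (GRCm38.p6).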

Additional observations from a re-analysis of the deposited data

Results flagged for a closer look

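Dixon's criterion flags about 1 of 20 sets of independent normal values. That rate does not hold here, since the sets share libraries and some rest on few counts. In 9 of 64 sets of 1 gene in 1 group, the highest or lowest library lay far from the others by this criterion. Among livers these were Ins2+/- A replicate 2 for H2-Aa (135 CPM, next 70.1 CPM) and H2-Ab1 (140 CPM, next 68.4 CPM), Ins2+/- B replicate 5 for Cd74 (291 CPM, next 188 CPM) and Ins2+/+ A replicate 1 for Cd74 (177 CPM, next 141 CPM).

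Among muscles, B2m was high in Ins2+/- B replicate 2 (509 CPM, next 161 CPM), which also had the highest mitochondrial share. H2-K1 was high in Ins2+/- B replicate 4 (228 CPM, next 94.0 CPM), the muscle with the highest sums of acinar (31386 CPM) and islet (19170.2 CPM) markers. H2-Eb1 was low in Ins2+/- A replicate 3 (0.984 CPM, next 20.5 CPM), where it rests on 1 count. Ciita was high in Ins2+/- B replicate 1 (4.26 CPM, next 0.529 CPM) and in Ins2+/+ A replicate 1 (3.27 CPM, with 0 in the other libraries of that group).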

How the results depend on the processing

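No member was called in any genotype, diet or interaction comparison, or in the differences between tissues, under any alternative run, and 7 or 8 of 8 were higher in liver than in muscle. The estimates of single members kept their direction and side of the threshold in 389 cases, changed sign in 7 and passed the threshold in 5; leaving out 1 library kept 948 and took 3 past it. Of 65 further member estimates given only in ranges, 47 changed sign under at least 1 alternative and none was called.

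The values that changed sign were as follows. In the liver averaged over diets the class I heavy chains summed gave -0.02 in place of H2-D1. Without the libraries holding islet transcripts, the liver on diet A gave -0.0 for B2m and -0.18 for Ciita, and B2m in muscle gave -0.03 both for genotype on diet B and for diet. B2m in muscle averaged over diets was -0.05 with limma-voom and -0.02 without the 2 muscles of high mitochondrial share, an alternative chosen after seeing the data. The cause was not tested. Ciita between tissues was 1.19 with RLE scaling, 1.24 with DESeq2, 1.75 with limma-voom, 1.61 with a replicate block and 0.52 without the libraries holding islet transcripts. With the replicate block H2-Ab1 in liver on diet A was 0.67 (adjusted p = 0.412) and H2-Eb1 in muscle on diet B was -0.93, and the block changed no other call of a member. Leaving out each library in turn put H2-Ab1 in liver on diet A between 0.33 and 0.86 and H2-Eb1 in muscle on diet B between -1.33 and -0.82, and that H2-Eb1 estimate was -0.55 without the libraries holding islet transcripts. With livers Ins2+/- B replicates 2 and 3 summed, the liver averages of H2-Ab1 and Cd74 were 0.42 and 0.32; with limma-voom they were 0.15 and 0.11.

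Counts over all genes moved more. For genotype in the liver averaged over diets they were 1 by edgeR and up to 32 with DESeq2; on diet A 1 and up to 16 with DESeq2; on diet B 0 and up to 37 with limma-voom. For diet in the liver 28 were called by edgeR, 8 without the libraries holding islet transcripts and 292 with limma-voom. In muscle DESeq2 called 3 for genotype averaged over diets, 2 on diet A, 1 on diet B, 4 for diet and 1 for the interaction, and for the differences between tissues 13 for genotype and 17 for diet. Depth limits Ciita and the muscle class II chains most, since they rest on few counts in the shallow libraries.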
